A study of Caenorhabditis elegans with 6 samples.

Results

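The genes described here encode 3 parts of the DNA replication machinery of the nematode *Caenorhabditis elegans*: the replicative helicase (*mcm-2* to *mcm-7*), the sliding clamp (*pcn-1*) and ribonucleotide reductase (*rnr-1* and *rnr-2*). They were taken by gene name, 9 genes of 12798 in the deposited table, with 39 merged exons of 53267. RNA of whole worms was sequenced in 6 libraries of pooled animals to compare 2 mutants of *sdhb-1*, the iron-sulphur subunit of succinate dehydrogenase, with control animals of a similar stage. WT is the N2 strain, measured as L2, L3 and L4 larvae, written WT (L2), WT (L3) and WT (L4). The strain *gk165* carries the deletion allele *sdhb-1(gk165)*, which also removes part of the neighbouring gene *cup-15*, and was measured as L2 larvae. The paper reports that *gk165* larvae arrest at L2, so this arrest cannot be told apart from other effects of the deletion in comparisons with WT. R244H and WTR, both measured as L4 larvae, carry the same deletion together with 1 insertion on the X chromosome of the *sdhb-1* gene under its own promoter, with the Arg244His change in R244H and without it in WTR. The label writes R244H as *sdhb-1(gk165)/mIn1;R244H*, a genotype in which the deletion stands over the *mIn1* balancer, whereas WTR is written as *sdhb-1(gk165);WTR* with no balancer. The insertions carry an *unc-119(+)* marker, and *mIn1* carries a GFP marker and *dpy-10(e128)*, so that the balancer named in the label cannot be told apart from the Arg244His change where R244H is compared with WTR, nor the balancer and the transgene where it is compared with N2. All worms were grown at 20 °C on OP50 bacteria.

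Before S phase the MCM proteins are loaded onto replication origins as a ring around double-stranded DNA, and after activation the ring unwinds the helix ahead of the polymerases. The clamp PCN-1, the worm PCNA, tethers the polymerases to DNA, and ribonucleotide reductase makes the deoxynucleotides they use. In a *C. elegans* larva most cells that still enter S phase lie in the growing germline and in somatic blast cells such as those of the seam and the vulva, while intestinal and hypodermal nuclei endoreduplicate.

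Each condition had 1 library, so no difference below has a replicate check and no p-value is given; intervals are at the 95% level and cover counting error only. The libraries were shallow. The listed exons held 188742 to 867446 reads per library. The 9 genes together held 155, 318 and 842.99 reads in WT at L2, L3 and L4, and 60.5, 108 and 710.99 in *gk165*, R244H and WTR, and 23 of their 39 exons had no read in *gk165* against 10 in WT (L2) and 0 in the L4 controls. A read shared between exons was counted in fractions. Reads of *sdhb-1* itself numbered 5 in *gk165*, against 32 and 142 in L2 and L3 wild type. Among the L4 libraries its level, which in both transgenic strains includes the inserted copy and cannot check the balancer, was 206 RPM in WT, 174 in R244H and 84.3 in WTR. The *gk165* library also differed from the others in where its reads fell: 58.3% of the reads of 8216 genes with at least 3 listed exons lay in the exon at the 3′ end, which makes up 24.0% of their length, against 38.3% at L2 and 34.6% at L3 in WT and 27.9% to 30.8% in the L4 libraries. For the 9 replication genes the share was 62.0% in *gk165*, 39.4% and 35.2% in WT at L2 and L3, and 28.9% to 31.6% in the L4 libraries. For *gk165*, the members and the lists of replication, mitosis and germline genes are therefore given both over all exons and for the exon at the 3′ end alone.

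The summed level of the replication genes was lowest in the 2 mutants and highest in the L4 controls, an order that *mcm-3*, *mcm-6*, *rnr-1* and *rnr-2* did not follow in both mutants and *pcn-1* and *rnr-2* did not follow in WT (L4). Summed over the 9 genes, the level, in RPM (reads per 1000000 of the authors' effective library size), was 667, 571 and 1054 at L2, L3 and L4 in WT, with 219 for *gk165*, 276 for R244H and 1362 for WTR. In 5 genes, *mcm-2*, *mcm-4*, *mcm-5*, *mcm-7* and *pcn-1*, both mutant libraries lay below all 4 control libraries, an arrangement that 11.4% of 11418 genes had. The other members departed from it in 1 mutant each: *mcm-3* and *rnr-2* in *gk165* (L2), and *mcm-6* and *rnr-1* in R244H (L4), which was slightly above WT (L2) for both. In whole worms, fewer replicating cells and less RNA of these genes per cell cannot be told apart.

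**Figure D1:**
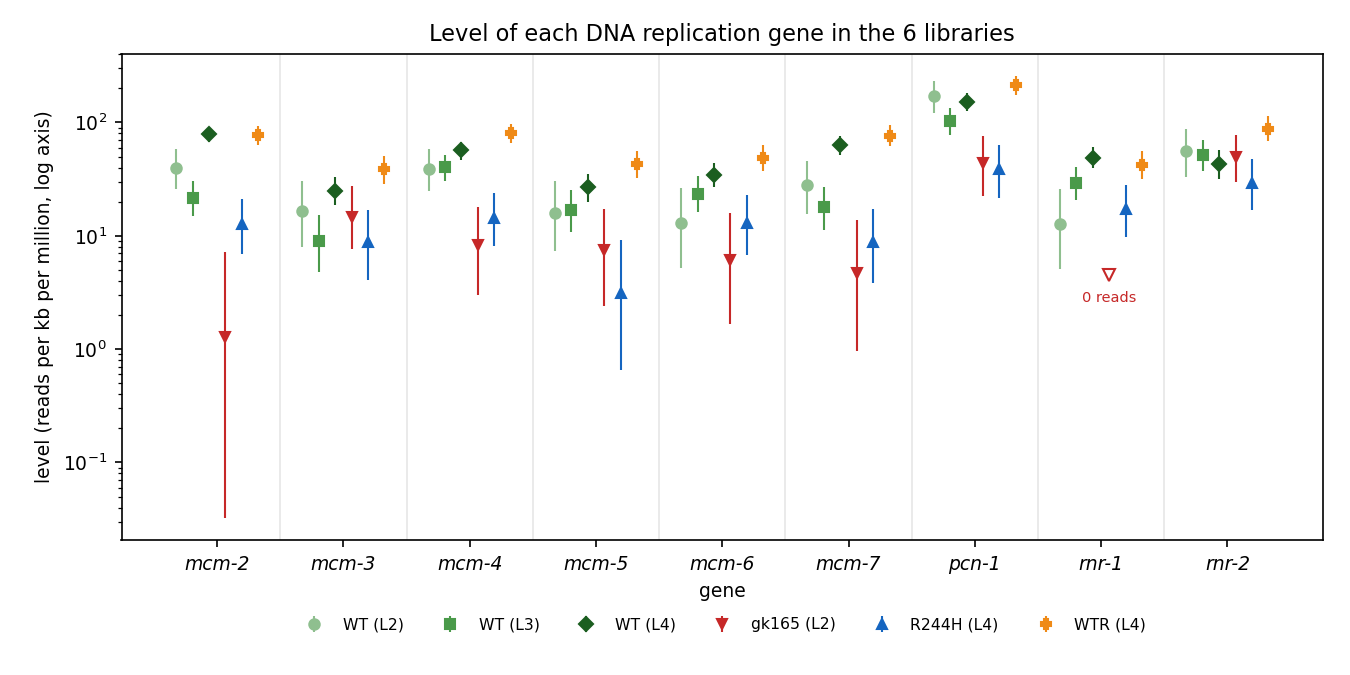
Level of each replication gene in the 6 libraries, in reads per kilobase of listed exon per 1000000 reads on a log axis, with 95% Poisson intervals that cover counting error only. The triangles of *gk165* (L2, red) and R244H (L4, blue) lie under the 4 control libraries for *mcm-2*, *mcm-4*, *mcm-5*, *mcm-7* and *pcn-1*, and the open triangle marks the level that 3 reads would give for *rnr-1*, which had 0 reads in *gk165*.

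The MCM subunits were compared first. Levels are given as RPKM, reads per kilobase of listed exon per 1000000 reads, and ratios as log2 of the ratio of RPM. *mcm-2* (WBGene00003154, chromosome II, 12001510 to 12006625, minus strand) encodes the subunit whose N-terminal tail binds histones in yeast and mammals. It had 26, 34 and 177 reads at L2, L3 and L4 in WT, with 1 for *gk165*, 14 for R244H and 114 for WTR, levels of 39.6, 21.6, 78.3, 1.28, 12.7 and 77.3 RPKM in that order. Both mutants were below all controls, though R244H and its nearest control, WT (L3), overlapped within counting error, and *gk165* was below R244H. The L4 controls did not differ from each other beyond counting error. In *gk165* the log2 ratio was -4.95 to WT (L2), with an interval of -10.31 to -2.34, and -4.08 to WT (L3), with an interval of -9.42 to -1.50. The single read of *gk165* lay in exon 2, and the exon at the 3′ end of *mcm-2* held 0 reads. Against 5 reads in WT (L2) this is 1.98-fold lower as a bound, with an interval that reached a log2 ratio of -0.12. Against 9 in WT (L3) the interval of the bound included no change. For R244H the log2 ratio was -2.63 (-3.53 to -1.84) to WT (L4) and -2.61 (-3.53 to -1.80) to WTR (L4).

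*mcm-4* (WBGene00003156, chromosome I, 2318291 to 2321847, minus strand) and *mcm-7* (WBGene00003159, chromosome V, 4347348 to 4349768, plus strand) encode subunits that, with MCM6, have helicase activity on their own in yeast and mammalian preparations. *mcm-4* had 24, 59 and 119.99 reads at L2, L3 and L4 in WT, with 6 for *gk165*, 15 for R244H and 110.99 for WTR, levels of 39.0, 40.1, 56.7, 8.21, 14.5 and 80.4 RPKM. *mcm-7* had 15, 23, 116, 3, 8 and 92.5 reads in the same order, levels of 27.9, 17.8, 62.7, 4.69, 8.83 and 76.6 RPKM. For both genes the mutants were below every control, *mcm-7* of R244H overlapping WT (L3) within counting error, and the 2 mutants did not differ from each other beyond counting error. The log2 ratio of *mcm-4* in *gk165* was -2.25 (-3.83 to -0.92) relative to WT (L2) and -2.29 (-3.79 to -1.08) to WT (L3), and that of *mcm-7* was -2.57 (-5.002 to -0.75) and -1.93 (-4.31 to -0.20). The exon at the 3′ end held 2 reads of each gene in *gk165*. There *mcm-4* was not called to WT (L2), with 2 reads in both, and had a log2 ratio of -0.90 (-4.26 to 1.34) to WT (L3), and *mcm-7* had -1.06 (-4.72 to 1.55) and -0.57 (-3.91 to 1.91), so that none of these intervals lay below no change. For R244H the log2 ratio of *mcm-4* was -1.97 (-2.85 to -1.19) to WT (L4) and -2.47 (-3.36 to -1.69) to WTR (L4). That of *mcm-7* was -2.83 (-4.07 to -1.80) and -3.12 (-4.38 to -2.09), so each of these R244H intervals lay below no change.

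*mcm-5* (WBGene00003157, chromosome III, 4288264 to 4291283, minus strand) encodes the subunit that closes the ring against MCM2, at the gate through which DNA enters in the yeast and fly complexes. It had 9, 23 and 52 reads at L2, L3 and L4 in WT, with 5 for *gk165*, 3 for R244H and 55 for WTR, levels of 15.9, 17.0, 26.7, 7.43, 3.15 and 43.3 RPKM. It had the largest log2 ratios of the 9 genes in R244H, -3.08 (-5.41 to -1.46) to WT (L4) and -3.78 (-6.10 to -2.16) to WTR (L4), from 3 reads spread over 4 exons. In *gk165* the log2 ratio was -1.10 with L2 and -1.19 with L3 wild type as control, and both intervals, -3.02 to 0.63 and -2.94 to 0.24, included no change. In the exon at the 3′ end alone, which held 4.5 of the 5 reads of *gk165*, the log2 ratio was -0.89 (-2.73 to 1.137) to WT (L2) and 0.37 (-1.47 to 2.398) to WT (L3).

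*mcm-6* (WBGene00003158, chromosome III, 9794653 to 9798643, plus strand) had 7, 30.5 and 65 reads at L2, L3 and L4 in WT, with 4 for *gk165*, 12 for R244H and 59.5 for WTR, levels of 12.8, 23.3, 34.6, 6.17, 13.1 and 48.6 RPKM. R244H was below its L4 controls and level with WT (L2). The log2 ratio in R244H was -1.41 (-2.43 to -0.51) to WT (L4) and -1.89 (-2.94 to -0.998) to WTR (L4). In *gk165* it was -1.06 (-3.28 to 0.92) to WT (L2), a difference not detectable at this depth, and -1.92 (-3.91 to -0.44) to WT (L3). The exon at the 3′ end held 0 reads in *gk165* against 1 and 5.5 in L2 and L3 wild type, too few for a difference.

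*mcm-3* (WBGene00003155, chromosome V, 15056719 to 15059599, minus strand), a subunit that contacts the loading factors in yeast, stood apart in *gk165*. It had 10, 13 and 51.5 reads at L2, L3 and L4 in WT, with 10.5 for *gk165*, 9 for R244H and 52 for WTR, levels of 16.6, 9.01, 24.8, 14.7, 8.87 and 38.4 RPKM. The *gk165* library lay between WT (L2) and WT (L3), and R244H was the lowest of the 6. The log2 ratio in *gk165* was -0.18 (-1.49 to 1.28) relative to WT (L2) and 0.70 (-0.53 to 2.04) to WT (L3), so a fall as large as that of *mcm-2* lay outside both intervals. The 10.5 reads were 4.5 in exon 1 at the 3′ end, 0 in exon 2 and 6 in exon 3, compared with 1, 5 and 4 in WT (L2) and 0.5, 9.5 and 3 in WT (L3). In exon 1 alone *mcm-3* was higher in *gk165*, opposite in direction to most members, with log2 ratios of 1.92 (-1.09 to 7.64) to WT (L2) and 4.18 (0.17 to 8.90) to WT (L3). The latter interval was computed after 4.5 and 0.5 reads were rounded up to whole reads, so it does not establish a difference. Exon 1 shares 73 bases with *C25D7.16* on the other strand, a gene with 0 reads in *gk165*. For R244H the log2 ratio of *mcm-3* was -1.49 (-2.71 to -0.47) to WT (L4) and -2.12 (-3.32 to -1.08) to WTR (L4).

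Although the subunits form a ring with 1 copy of each, their RNA levels were not equal. The highest subunit exceeded the lowest 3.08-fold, 4.45-fold and 3.15-fold at L2, L3 and L4 in WT, 2.09-fold in WTR (L4), 4.603-fold in R244H and 11.4-fold in *gk165* (L2), where the lowest, *mcm-2*, rested on 1 read. Median levels of the 6 subunits were 22.2, 19.7 and 45.7 RPKM at L2, L3 and L4 in WT, with 6.80 for *gk165*, 10.8 for R244H and 62.6 for WTR.

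**Figure D2:**
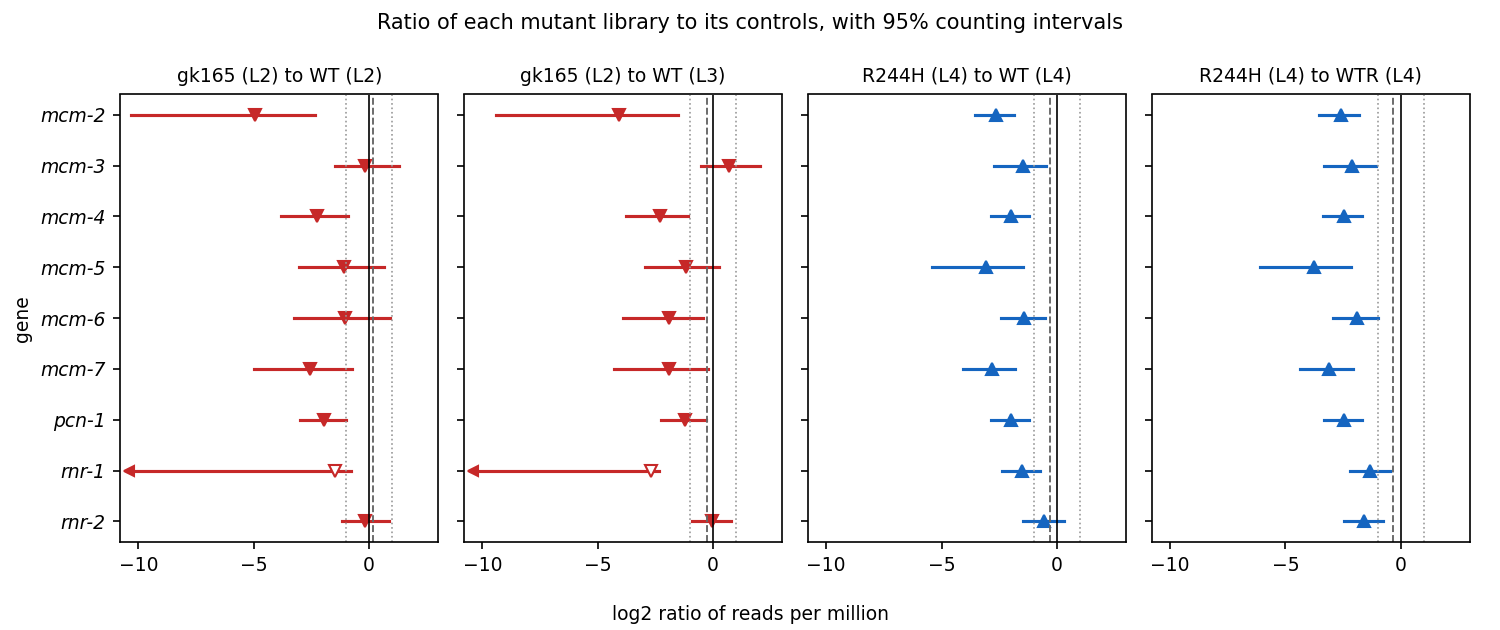
Log2 ratio of RPM in each mutant library to each of its 2 control libraries, with 95% binomial counting intervals; dotted lines mark 2-fold, the dashed line the median of all genes tested, and open symbols with an arrow a bound from 0 reads. In R244H (L4) all 9 intervals to WTR (L4) and 8 of 9 to WT (L4) lie below 0, while in *gk165* (L2) *mcm-3* and *rnr-2* lie near 0.

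*pcn-1* (WBGene00003955, chromosome IV, 4047937 to 4049448, minus strand) was the most abundant of the 9 genes per length in every library other than *gk165* (L2), where *rnr-2* was higher. It had 39, 57 and 120 reads at L2, L3 and L4 in WT, with 12 for *gk165*, 15 for R244H and 110 for WTR, levels of 169, 103, 151, 43.8, 38.7 and 213 RPKM. The 2 mutants were below every control and did not differ from each other beyond counting error. The log2 ratio was -1.95 (-3.02 to -0.99) for *gk165* to WT (L2) and -1.24 (-2.27 to -0.32) to WT (L3). All 12 reads of *gk165* lay in the exon at the 3′ end, and in this exon alone the log2 ratio of *pcn-1* was -1.62 (-2.72 to -0.62) relative to WT (L2) and -0.73 (-1.79 to 0.23) to WT (L3), where the interval included no change. For R244H the log2 ratio was -1.97 (-2.85 to -1.19) to WT (L4) and -2.46 (-3.34 to -1.68) to WTR (L4), with 12.5 of 15 reads in that exon compared with 82 of 120 in WT (L4).

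The 2 subunits of ribonucleotide reductase differed from each other. *rnr-1* (WBGene00004391, chromosome III, 9225374 to 9228078, minus strand) encodes the large subunit, which holds the catalytic and allosteric sites, and 4 of its 6 merged exons were listed. It had 7, 38.5 and 93.5 reads at L2, L3 and L4 in WT, with 0 for *gk165*, 16 for R244H and 53 for WTR, levels of 12.6, 28.95, 49.0, 0, 17.1 and 42.5 RPKM. The 0 reads of *gk165* have a 95% Poisson upper limit of 5.59 RPKM. With the floor of 3 reads, or 4.55 RPKM, in their place, as a bound *rnr-1* lay 2.77-fold under WT (L2) and 6.37-fold under WT (L3). With counting error the intervals reached log2 ratios of -0.78 and -2.32, which are smaller changes than these bounds. In the exon at the 3′ end alone, with 0 reads against 3.5 and 17.5, the bounds were 1.39-fold, with an interval that included no change, and 2.89-fold. For R244H the log2 ratio of *rnr-1* was -1.52 (-2.39 to -0.75) to WT (L4) and -1.31 (-2.22 to -0.48) to WTR (L4).

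*rnr-2* (WBGene00004392, chromosome III, 4093306 to 4094921, minus strand) encodes the small subunit, which carries the tyrosyl radical. It had 18, 40 and 48 reads at L2, L3 and L4 in WT, with 19 for *gk165*, 16 for R244H and 64 for WTR, levels of 55.8, 51.8, 43.2, 49.5, 29.4 and 88.3 RPKM. No neighbours in the order of the 6 libraries differed beyond counting error. The log2 ratio in *gk165* was -0.17 (-1.18 to 0.84) relative to WT (L2) and -0.06 (-0.93 to 0.76) to WT (L3), so the counting intervals went no lower than -1.18. For the exon at the 3′ end it was 0.59 (-0.79 to 2.21) and 0.41 (-0.68 to 1.56). In R244H it was -0.55 (-1.47 to 0.29) to WT (L4) and -1.58 (-2.47 to -0.78) to WTR (L4), and the 2 controls themselves differed, with a log2 ratio of 1.03 (0.47 to 1.602) for WTR (L4) to WT (L4).

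Per length, *rnr-2* exceeded *rnr-1* 4.42-fold (1.76 to 12.5) in WT (L2), 1.79-fold (1.11 to 2.82) in WT (L3), 1.72-fold (0.81 to 3.67) in R244H (L4) and 2.08-fold (1.42 to 3.05) in WTR (L4), and stood at 0.88-fold (0.61 to 1.26) in WT (L4). In *gk165* (L2) it exceeded *rnr-1* 10.9-fold as a bound set by the floor of 3 reads, with a lower limit of 8.03-fold from counting error. The interval of WT (L4) did not overlap those of WT (L2) and WTR (L4).

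Over the 9 genes, the *gk165* library was at least 2-fold lower than WT (L2) in 7, compared with 24.8% of all 7901 genes with more than 3 reads in at least 1 of the 2 libraries, and 0 were at least 2-fold higher, compared with 29.5%. In 5 of the 9 the interval also lay below no change, which held for 14.8% of genes. The median log2 ratio was -1.47 for the 9 genes and 0.17 for all genes tested. To WT (L3), 7 of the 9 were at least 2-fold lower, compared with 30.7% of 9417 genes, 6 of them with an interval below no change, compared with 20.7%, and 0 were at least 2-fold higher, compared with 21.1%. The medians were -1.92 for the 9 genes and -0.26 for all genes. These 2 comparisons share the *gk165* library. Of the 9 genes, 6 had more than 3 reads in both libraries of each comparison. Among genes with 30 reads or more in 1 library, *pcn-1* alone of the members met this minimum to WT (L2) and was lower, as were 25.5% of genes, and 5 of 6 members were lower to WT (L3), as were 44.2% of genes. In the exon at the 3′ end alone, 2 of the 7 genes with enough reads were at least 2-fold under WT (L2), against 16.5% of all genes, and 1 of 9 under WT (L3), against 18.6%, so that in this exon the members no longer stood clear of all genes by their count. The reads summed over the 9 genes gave a log2 ratio of -1.61 (-2.05 to -1.16) to WT (L2) over all exons and -0.95 (-1.56 to -0.32) in the exon at the 3′ end, where the median of all genes was 0.75. To WT (L3) the summed log2 ratio was -1.38 (-1.79 to -0.97) over all exons and -0.57 (-1.12 to -0.01) in that exon, with a median of all genes of 0.20.

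In R244H (L4), 8 of the 9 genes were lower than in L4 wild type by 2-fold or more, compared with 29.4% of 10459 genes, and all 9 were so relative to WTR (L4), compared with 30.7% of 9886 genes; the exception to WT (L4) was *rnr-2*. The same 8 and 9 had intervals below no change, compared with 21% and 22.9% of genes. All 9 had 30 reads or more in 1 library of each comparison, and of such genes 33.1% and 32% were at least 2-fold lower. The median log2 ratio was -1.97 to WT (L4) and -2.46 to WTR (L4), compared with -0.29 and -0.32 for all genes tested, and 0 of the 9 were at least 2-fold higher, compared with 15% and 18.4% of genes. The summed log2 ratio was -1.93 (-2.24 to -1.64) to WT (L4) and -2.30 (-2.61 to -2.01) to WTR (L4), and in the exon at the 3′ end alone it was -1.83 (-2.38 to -1.29) and -2.33 (-2.88 to -1.79). In this exon 7 and 8 of the 9 were at least 2-fold lower, against 27% and 31.2% of genes. These 2 comparisons share the R244H library.

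**Figure D3:**
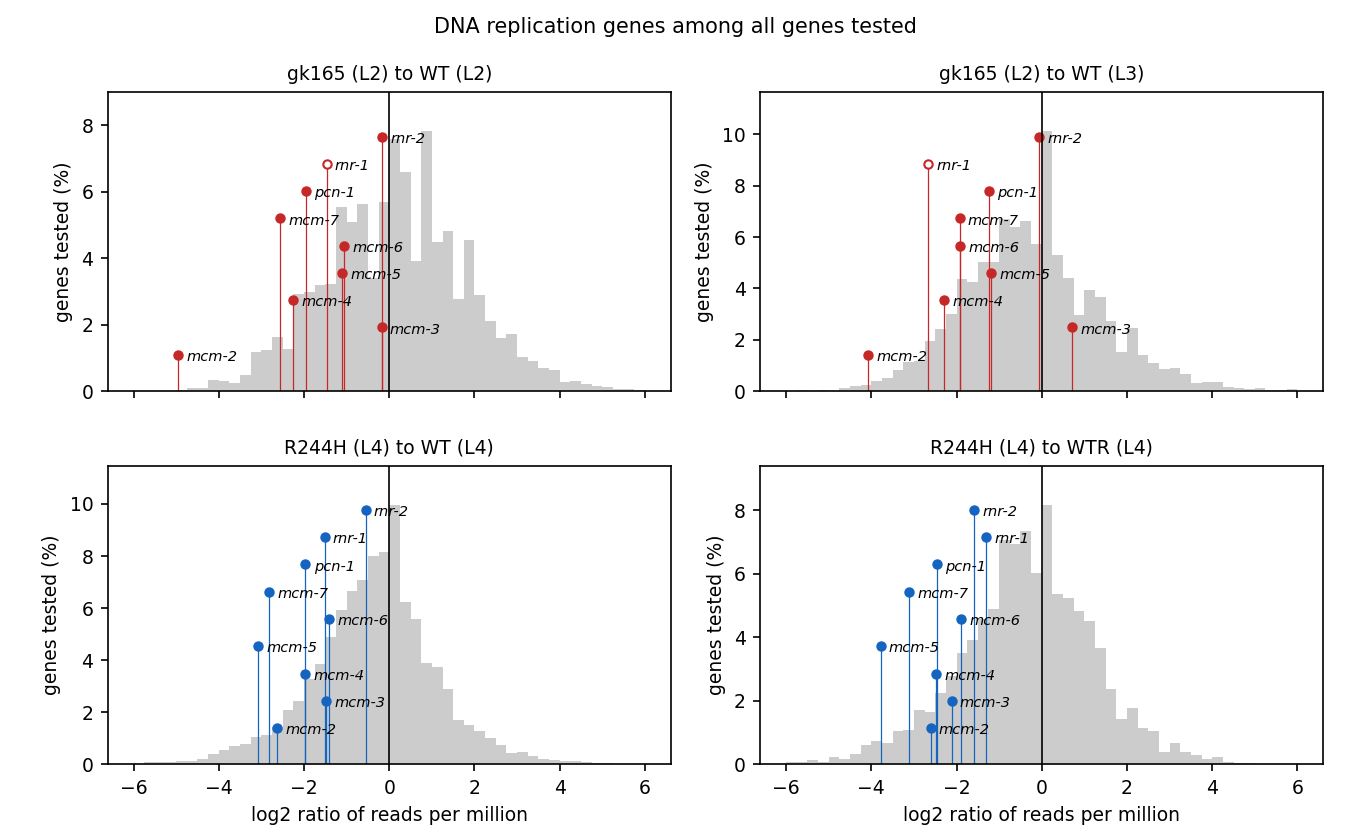
Distribution of log2 ratios of RPM over all genes tested (grey bars, percent of genes per bin of 0.25) in the 4 mutant comparisons, with each replication gene marked at its own ratio; the heights of the markers carry no value, and an open marker is a bound. The replication genes lie left of most genes in R244H (L4), at medians of -1.97 and -2.46, and are spread from -4.95 to -0.17 in *gk165* (L2) to WT (L2).

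The 2 L4 controls differed by at most 2.04-fold in any member. In WTR (L4) compared with WT (L4), 0 of the 9 genes were at least 2-fold lower, against 9.29% of 10354 genes, and 1, *rnr-2*, was at least 2-fold higher, against 7.8%. The summed log2 ratio was 0.37 (0.22 to 0.52), with *mcm-3*, *mcm-4*, *mcm-5* and *pcn-1* between 0.49 and 0.70 and intervals above no change.

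Across the wild-type stages the members did not move as 1 group. From WT (L2) to WT (L3), *mcm-2* and *pcn-1* had log2 ratios of -0.87 (-1.65 to -0.08) and -0.71 (-1.33 to -0.09), whereas *rnr-1* had 1.199 (0.04 to 2.62) and was the 1 member at least 2-fold higher, against 22.9% of genes; 0 were at least 2-fold lower, against 4.77%. From WT (L3) to WT (L4), *mcm-2*, *mcm-3* and *mcm-7* were at least 2-fold higher, with log2 ratios of 1.86 (1.32 to 2.43), 1.46 (0.58 to 2.48) and 1.81 (1.16 to 2.53), 3 of 9 against 23% of genes, and 0 were at least 2-fold lower, against 18.1%. The other subunits, *mcm-4*, *mcm-5* and *mcm-6*, had ratios of 0.50 to 0.65 over the same interval, and *rnr-2* had -0.26 (-0.89 to 0.38). From WT (L2) to WT (L4), *mcm-6*, *mcm-7* and *rnr-1* were at least 2-fold higher, 3 of 9 against 30.1% of genes, and 0 were at least 2-fold lower, against 11.6%, with *rnr-1* at 1.96 (0.86 to 3.32), while *pcn-1* at -0.16 (-0.69 to 0.40) and *rnr-2* at -0.37 (-1.18 to 0.50) showed no difference beyond counting error.

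Other genes of the replication pathway were also lower in R244H. Of 50 listed genes of origin licensing, helicase activation, polymerases and primase, lagging-strand synthesis and deoxynucleotide supply, 47 were matched. In R244H (L4), 34 of 47 lay at least 2-fold under WT (L4), compared with 29.4% of all genes, and 41 of 46 under WTR (L4), compared with 30.7%, and 0 were at least 2-fold higher in either, with median log2 ratios of -1.55 and -1.84. In *gk165* (L2) the same lists gave 9 of 25 lower and 5 higher to WT (L2), with a median of 0.02, and 16 of 40 lower and 0 higher to WT (L3), with a median of -0.45. Of all genes, 24.8% and 30.7% were at least 2-fold lower in these comparisons and 29.5% and 21.1% higher, with medians of 0.17 and -0.26. The lists differed among themselves in *gk165* against WT (L2). Summed RPM were 41.6 against 71.0 for licensing, 34.4 against 79.6 for helicase activation and 59.7 against 168 for polymerases and primase. They were 516 against 499 for the lagging-strand list and 67.0 against 38.7 for deoxynucleotide supply. With the exon at the 3′ end alone, 2 of 9 genes of these lists were lower to WT (L2), against 16.5% of all genes, and 2 of 18 to WT (L3), against 18.6%. In each comparison 4 were higher, where the medians of all genes in this exon were 0.75 and 0.20.

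Among the polymerases and primase, *pola-1*, the catalytic subunit of polymerase alpha, was at least 2-fold lower in both mutants. It had 11, 43.5 and 107.5 reads at L2, L3 and L4 in WT, with 5 for *gk165*, 9 for R244H and 64.5 for WTR. Its log2 ratio in R244H was -2.55 (-3.72 to -1.58) to WT (L4) and -2.43 (-3.63 to -1.42) to WTR (L4), and in *gk165* -1.39 (-3.26 to 0.26) to WT (L2) and -2.11 (-3.82 to -0.80) to WT (L3). *pri-2*, the large primase subunit, had 7, 15, 43, 2, 3 and 29 reads in the same order. In the lagging-strand list, *top-2*, a type II topoisomerase, had 28, 77, 253, 14, 23 and 161 reads, with a log2 ratio of -2.43 (-3.11 to -1.81) in R244H to WT (L4) and -1.25 (-2.29 to -0.28) in *gk165* to WT (L2). *rpa-1*, the large subunit of the single-strand binding complex, had 11, 32.5, 71, 4, 16 and 71.16 reads. Over all exons, each of these 4 genes was at least 2-fold lower in both mutants to both of their controls, which is why they are named. *rfc-2* of the lagging-strand list, with 6, 19, 31, 2, 5 and 29 reads in the same order, was so too. In *gk165* the intervals of *pri-2* to WT (L2) (-5.36 to 0.34) and WT (L3) (-5.07 to 0.21) and of *rpa-1* to WT (L2) (-3.82 to 0.05) included no change. Of the 5 genes of the replication lists at least 2-fold higher in *gk165* to WT (L2), *rfc-1*, at 1.87 (0.002 to 4.32), was the 1 with an interval above no change.

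Among licensing genes, 6 of 8 were at least 2-fold lower in R244H to both controls. Taken singly, 29.4% and 30.7% of all genes were lower to WT (L4) and WTR (L4). Of the 6, *cdt-1* had 0 reads in R244H, *gmn-1* had 1 and *orc-5* had 1.5. Also among them was *cdc-6*, which helps to load the MCM ring and had 21, 16.5 and 4.33 reads in WT (L4), WTR (L4) and R244H (L4). *cye-1*, the cyclin E that drives entry into S phase, had 32.5, 26.5 and 2 reads, and *dut-1*, the dUTPase, had 33, 50 and 2. Their log2 ratios in R244H to WT (L4) were -2.99 (-6.12 to -1.05) and -3.01 (-6.12 to -1.05). *cdc-6* alone of the licensing list was also at least 2-fold lower in *gk165* to both controls, from 2 reads against 7 and 14.5, with intervals that included no change.

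**Figure D4:**
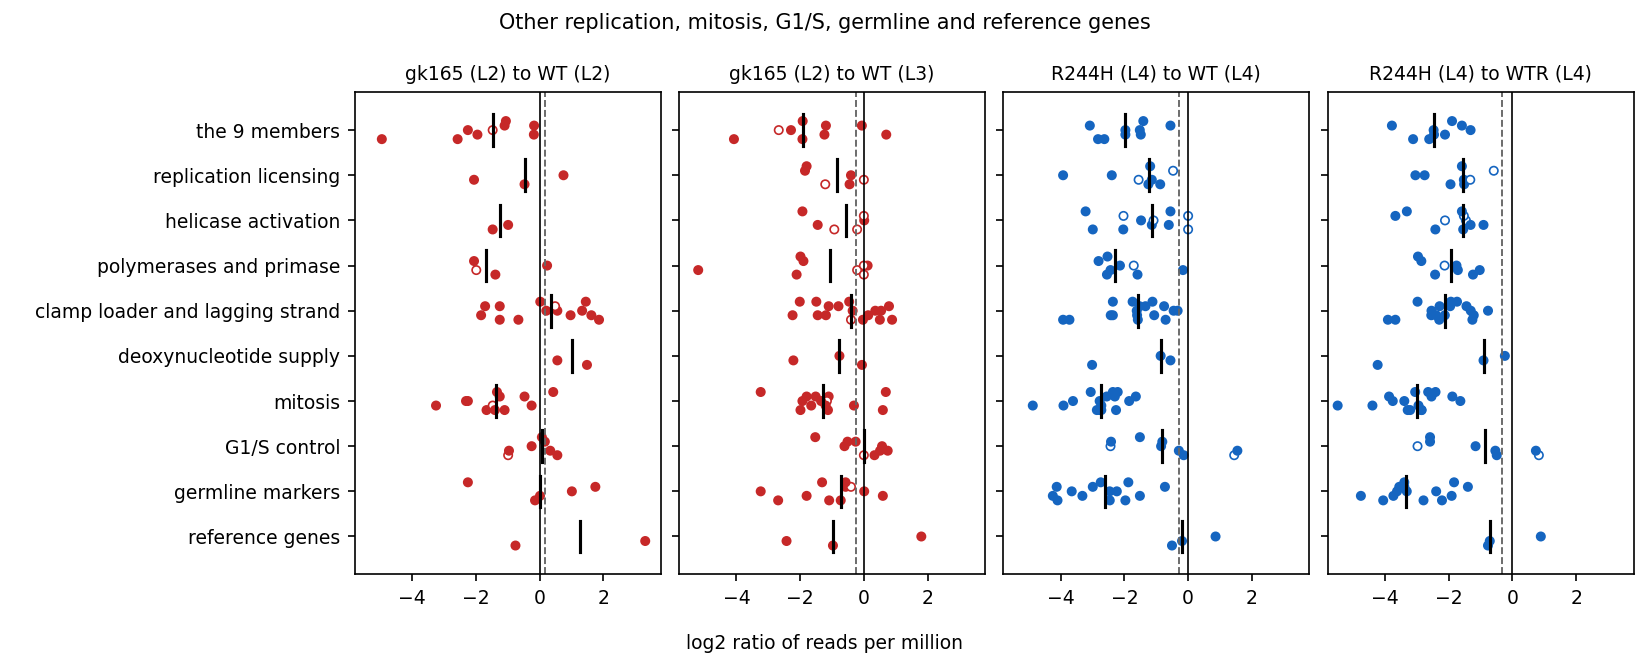
Log2 ratio of RPM for the 9 members and the genes of 9 other lists in the 4 mutant comparisons; each point is 1 gene with more than 3 reads in at least 1 library, open points are bounds, black bars are list medians and the dashed line is the median of all genes tested. In R244H (L4) all 16 mitosis genes and 13 of 14 germline markers lie beyond 2-fold lower to WT (L4), while the 3 reference genes lie within 2-fold.

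Genes of mitosis were lower in R244H and, over all exons, in *gk165*. Whether their RNA follows the number of dividing cells was not tested. All 16 were at least 2-fold lower in R244H to both controls, against 29.4% and 30.7% of all genes, with median log2 ratios of -2.72 and -2.999. *cyb-1*, a B-type cyclin, had 179.84 reads in WT (L4), 179 in WTR (L4) and 3 in R244H (L4). In *gk165* 9 of 12 were at least 2-fold under WT (L2) and 11 of 14 under WT (L3) over all exons, against 24.8% and 30.7% of all genes. In the exon at the 3′ end these counts were 1 of 6 and 4 of 12, against 16.5% and 18.6%, with 1 and 3 higher. The summed log2 ratios there, -0.34 (-1.07 to 0.39) and -0.38 (-0.98 to 0.24), had intervals that included no change, while the medians of all genes in this exon were 0.75 and 0.20. Summed over the list, the level was 501, 515 and 1597 RPM at L2, L3 and L4 in WT, with 217 for *gk165*, 284 for R244H and 2005 for WTR. Of 10 genes that control entry into S phase, 0 of the 7 with enough reads were at least 2-fold lower in *gk165* to WT (L2) and 1 of 9 to WT (L3), against 24.8% and 30.7% of all genes. In either comparison 0 were higher, against 29.5% and 21.1%. In R244H 3 of 9 were lower and 2 higher relative to WT (L4), against 29.4% and 15% of all genes. Relative to WTR (L4), 4 of 8 were lower and 0 higher, against 30.7% and 18.4%. Whether these genes differ from the members was not tested.

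Germline markers were lower in R244H, as the members were. The 14 markers summed to 168, 333 and 2472 RPM in WT at L2, L3 and L4, with 179 for *gk165*, 311 for R244H and 2629 for WTR. In R244H 13 of 14 were under WT (L4) by at least 2-fold and 14 of 14 under WTR (L4), against 29.4% and 30.7% of all genes, with median log2 ratios of -2.60 and -3.35. *gld-1*, a translational repressor of the germline, had 455 reads in WT (L4), 288 in WTR (L4) and 13 in R244H (L4). The defining markers were present in R244H, 0 of 14 having no read, and *glh-1*, a germline helicase, had 47 reads there. Relative to WT (L4), the summed log2 ratio in R244H was -2.99 (-3.26 to -2.72) for the germline markers, -3.20 (-3.67 to -2.76) for oocyte markers, where the intervals overlapped, and -6.08 (-7.40 to -5.03) for sperm markers. The part of the germline in the lower level of the replication genes in R244H was not tested. In *gk165* the summed germline markers had a log2 ratio of 0.09 (-0.52 to 0.75) to WT (L2), with 2 of 14 markers, *htp-3* and *nos-2*, at 0 reads compared with 4 in WT (L2), and -0.89 (-1.36 to -0.43) to WT (L3). For the exon at the 3′ end it was 0.47 (-0.50 to 1.45) and -0.39 (-1.09 to 0.30).

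**Figure D5:**
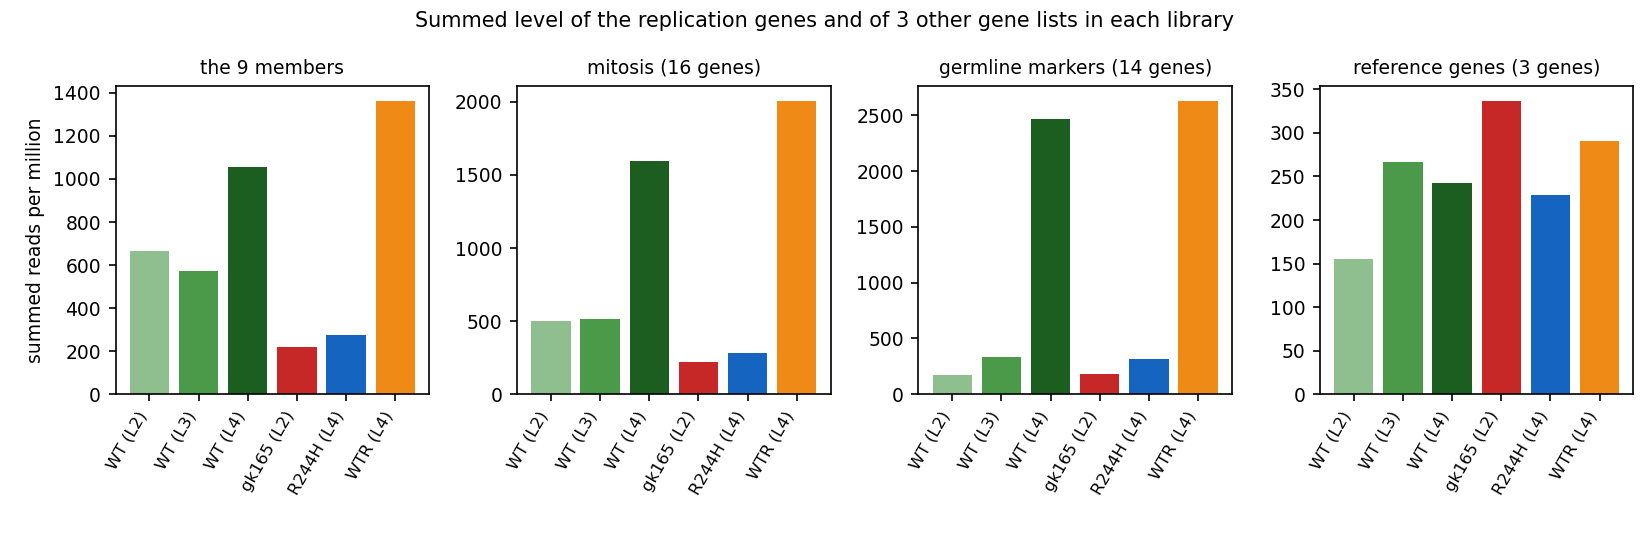
Summed RPM of the 9 replication genes, 16 mitosis genes, 14 germline markers and 3 reference genes in each library, 1 bar per library with no error bar because each condition has 1 library. The replication genes reach 219 in *gk165* (L2) and 276 in R244H (L4) against 571 to 1362 in the controls, while the germline markers of *gk165* (L2), at 179, are level with WT (L2), at 168.

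Most marker lists of other cell types held no gene at least 2-fold lower in R244H to WT (L4). To WT (L4), 0 of 5 intestine markers, 0 of 5 body wall muscle markers, 0 of 6 neuron markers and 0 of 4 pharynx markers were at least 2-fold lower, against 29.4% of all genes. Their summed log2 ratios were 0.78, -0.27, 0.92 and -0.36, so muscle and pharynx were lower by less than 2-fold. Of 5 hypodermis markers 1, *elt-3*, was lower, at -2.14 (-7.59 to 0.71) from 1 read against 9, and 2, *dpy-7* at 5.03 and *bli-1* at 2.52, were higher, with a summed ratio of 0.27 (0.13 to 0.41). The summed level of each of these lists was higher in R244H than in WTR (L4), for example 15095 against 11746 RPM for body wall muscle and 886 against 475 RPM for pharynx. In *gk165* to WT (L2) the summed ratios over all exons were 1.09 for intestine, -1.11 for body wall muscle, -1.46 for hypodermis, 0.13 for neurons and -2.38 for pharynx. The intestine sum rested mostly on *asp-1*, with 1846 reads against 541 and a log2 ratio of 1.52. *ges-1* was also higher, at 1.84, while *act-5* at -2.07 and *ifb-2* at -1.36 were lower and *elt-2* had 0 reads against 4. Neuron markers ran from -3.25 for *rab-3* to 1.22 for *snb-1*. The part of these lists in the result for the replication genes was not tested. Of the reference genes often used for normalization, *cdc-42* had 27, 75 and 119 reads in WT at L2, L3 and L4, with 19 for *gk165*, 41 for R244H and 93 for WTR, and *Y45F10D.4* had 6, 41, 36, 71, 32 and 23 in that order, a log2 ratio of 3.32 (2.12 to 4.81) in *gk165* to WT (L2) and 1.80 (1.23 to 2.39) to WT (L3). *pmp-3* had 3, 32.5, 38.5, 3, 16.5 and 36 reads. In *gk165* to WT (L3), *pmp-3* at -2.43 (-4.80 to -0.78) and *cdc-42* at -0.97 (-1.78 to -0.23) were lower, as most members were, so the 3 reference genes did not hold 1 level in this library.

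Genes with a profile like that of the members were looked for among 6120 genes with at least 60 reads in the 6 libraries, by the root mean square difference from the mean profile of the 9 genes on the centred log2 scale. The nearest outside the members were *cup-5*, *rtfo-1*, *K07H8.10*, *F25B4.5* and *jmjd-1.2*, with differences of 0.14 to 0.20. The most deeply covered of them, *K07H8.10*, had 106, 278 and 896 reads at L2, L3 and L4 in WT, with 37 for *gk165*, 100 for R244H and 561 for WTR. Of the members, *mcm-4* was nearest to their own mean, at 0.14 and rank 1, and *mcm-7*, *mcm-6* and *pcn-1* stood at ranks 68, 95 and 178. *mcm-5*, *mcm-3*, *mcm-2* and *rnr-2* stood at ranks 524, 1266, 1767 and 1826, and *rnr-1*, with 0 reads in *gk165*, at rank 4447, so the mean profile did not describe the members equally well.

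The members overlap little with other genes. In the current annotation, *mcm-2*, *mcm-3*, *mcm-4*, *mcm-6*, *mcm-7* and *rnr-2* share 4 to 73 bases at an exon with a gene on the other strand, and *mcm-5*, *pcn-1* and *rnr-1* share none. All 9 are protein coding, and 5 of their 44 merged exons, 1 each in *mcm-3*, *mcm-6* and *mcm-7* and 2 in *rnr-1*, were not in the table.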

How the data were processed

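PolyA-selected RNA of whole worms was made into directional paired-end libraries and sequenced on a MiSeq. According to the paper's methods and the submitters' processing notes, reads were trimmed (Trim Galore 0.4.1, cutadapt 1.14), aligned to WBcel235 with TopHat2 2.1.0, counted over merged exons (Ensembl release 94) and normalized with edgeR 3.26.8; use of strand in counting is not given in the sources used here. The authors deposited log2 RPKM values per merged exon, to which 0.25 reads (scaled to each library) had been added. The second-highest library of any listed exon reaches 2.15 CPM or more, so an exon may be listed only through the libraries where it is high. From the steps of the values, reads were recovered: all 236867 non-zero values fell on hundredths of a read within 0.001, and 54.0% on whole reads. Gene values are the sum of reads over the listed exons, divided by the authors' effective library size. A gene was tested with more than 3 reads in 1 of 2 libraries, and 0 reads were set to 3 as a bound. Intervals were exact binomial (Clopper-Pearson) for ratios and exact Poisson for levels, with fractional reads rounded to whole reads. Reads from PCR are not independent molecules.

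Replicate models and set tests were left out because each condition has 1 library. Named list genes were those at least 2-fold changed in 1 direction to both controls of a mutant, at most 4 per list by total reads. The genes and the lists were chosen with earlier results of these data known. Alternatives were other ways to combine exons, pseudocounts of 1 and 0.1, other scalings, read minimums and thresholds, and, chosen after seeing the data, exons free of other genes and the exon at the 3′ end. Scripts (Python 3.11.15 with scipy 1.17.1, numpy 2.4.6, pandas 2.3.3 and matplotlib 3.10.9) were tested on simulated data. Overlaps were taken from Ensembl release 115 of the same assembly.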

Additional observations from a re-analysis of the deposited data

How the results depend on the processing

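Of 332 ratios of single members under the alternatives, 302 stayed within the counting interval of the reported value, 26 moved outside it and 4 went from at least 2-fold lower to the other sign, all of the last in *gk165* to WT (L3). Of the other ratios, 13 changed sign from a reported value under 2-fold, all of *mcm-3* or *rnr-2* in *gk165*, to WT (L2) or WT (L3). The 4 were *mcm-5*, at 0.37 with the highest exon only, with exons of 3 reads or more in both libraries and with the exon at the 3′ end, and *mcm-6*, at 0.011 with whole reads only. The counts rest on few reads in *gk165*. Of the members, 7 were at least 2-fold lower than in WT (L2); this became 3 with the highest exon, 1 with exons of 3 reads or more, 4 with whole reads, 2 with the exon at the 3′ end, 1 with at least 30 reads in 1 library and 4 at 3-fold, with 1 higher in the exon at the 3′ end. To WT (L3), 7 became 1 with the highest exon, 0 with exons of 3 reads or more, 3 with whole reads and 1 with the exon at the 3′ end, and 1 was higher with exons of 3 reads or more, with whole reads, with the exon at the 3′ end and at 1.5-fold. The filter on exons of 3 reads or more removes exons that lost their reads in *gk165*. The summed log2 ratio to WT (L2) moved to -0.72 with that filter, -2.11 with exons free of other genes and -0.95 with the exon at the 3′ end. To WT (L3) it moved to -0.87 with the highest exon, -0.025 with exons of 3 reads or more, -1.85 with exons free of other genes, -0.57 with the exon at the 3′ end and -2.16 as the mean of deposited log2 differences. In R244H the count to WT (L4) became 5 with the highest exon and 5 at 3-fold, and that to WTR (L4) 5 with whole reads. The summed ratio in R244H moved to -2.31 with whole reads and -1.64 centred on the median of all genes to WT (L4), and to -1.99 with exons of 3 reads or more and -1.98 centred to WTR (L4). Where the cause is not set by the alternative's own construction, it was not tested. An alternative that left both libraries at 3 reads or fewer, or a bound above the control, gave no value. No paired analysis was possible because each condition has 1 library.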

Other observations

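*cyd-1* and *cdk-4*, the D-type cyclin and its kinase, which act before the replication genes in the cell cycle, did not share the order of the members at L4. *cyd-1* had 5, 4 and 0 reads in WT at L2, L3 and L4, with 0 for *gk165*, 4 for R244H and 0 for WTR, and *cdk-4* had 1, 3, 0, 2, 2.5 and 0 in that order, so both had reads in R244H and none in either L4 control. These values were singled out after they were seen and lie near the floor of 3 reads. *cki-2*, a cyclin-dependent kinase inhibitor, had 33.16 reads in WT (L4), 31.5 in WTR (L4) and 0 in R244H (L4), while its paralog *cki-1*, also singled out after its values were seen, had 7, 8 and 10.

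Of the vitellogenin genes *vit-2*, *vit-6* and *vit-5*, which are made by the intestine of L4 and older hermaphrodites, the sum was 23139 RPM in L4 wild type, 24106 in WTR and 27836 in R244H. It was 17.2 in L2 and 1.8 in L3 wild type and 206, from 57 reads, in *gk165* (L2), a difference whose cause was not tested. R244H thus stood with its L4 controls in these genes while its replication genes did not. The hypodermis marker *dpy-7* did not stand with them either: it had 26, 82 and 2 reads at L2, L3 and L4 in WT, 0 in WTR and 32 in R244H. The paper reports delayed development of R244H, and whether R244H and its L4 controls were at the same point of L4 was not tested.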
